A study of Homo sapiens with 6 samples.

Results

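The 43 genes described here encode the machinery that copies DNA and the regulators that open S phase, and they were followed in 3 human acute myeloid leukemia (AML) cell lines with and without knockdown of NCAM1. They were chosen by name, as genes of origin licensing, helicase activation, the replication fork, nucleotide supply, chromatin assembly and the G1/S transition whose normalized counts average at least 10 across the 6 libraries. The rule uses no measured difference between groups, but the genes were chosen with earlier results of these data known. All 43 of the 43 listed genes were found and passed, out of 34114 genes in the table and 19575 with a mean of 10 or more. Their mean normalized counts ran from 615 (CCNE2) over a median of 3206 to 23600 (MCM4), so the filter on low values removed none of them.

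RNA was extracted with Trizol from 3 established AML lines (MOLM-14, NOMO-1, SKM-1) at 72 h after transfection and sequenced with the TruSeq RNA v2 kit. Each line gave 1 library with a scrambled control shRNA (group control_shRNA, 3 libraries) and 1 with an shRNA against NCAM1 (group NCAM1_knockdown, 3 libraries). NCAM1 is the neural cell adhesion molecule, also called CD56. The column names label the knockdown sh59 in MOLM-14 and NOMO-1 and sh59a in SKM-1, and whether these are 1 hairpin, like the number of cultures in a library, is not stated. No line has a replicate of its own. For knockdown against control, p-values therefore measure the spread of the response between lines. When the levels of lines are compared, the control and knockdown libraries of a line stand as its replicates, with that same spread as error. For the response of SKM-1 against the other lines, a gene's own spread comes only from the difference between the MOLM-14 and NOMO-1 responses.

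Before a cell can copy its DNA, the origin recognition complex (ORC), CDC6 and CDT1 load the ring-shaped MCM2-7 helicase onto origins, a step called licensing that geminin (GMNN) blocks once S phase has begun. The kinase CDC7 and the cyclin-dependent kinases then turn the loaded rings into active helicases with CDC45 and the GINS complex, and DNA polymerases alpha, delta and epsilon copy the strands with the sliding clamp PCNA and its loader RFC. Most genes of this set are textbook targets of E2F transcription factors, which RB-family proteins restrain until cyclin D and cyclin E kinases phosphorylate them, so in leukemic cells their RNAs are commonly read as a mark of proliferation.

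What the promoters of these genes share is shown first, because the choice of the genes did not use their promoter letters. Since most were known as E2F targets when chosen by name, a high share of E2F motifs is not an independent result. RefSeq promoter windows (GRCh38.p14, 250 bases before to 50 after each listed start) matched 39 of the 43 genes by symbol, and MCM4, MCM5, GINS4 and CCNE2 were not matched. An E2F motif, searched as TTTCCCGC, TTTCGCGC, TTTGCCGC or TTTGGCGC on both strands, was present for 22 of the 39 (56.4%), against 3.99% of all 27305 genes with a window and 6.35% of the 10818 of them that were tested. The CCAAT box, searched as CCAAT on both strands, was present for 22 (56.4%, against 39.7% of all and 42.8% of tested genes), and the cell cycle homology region (CHR), searched as TTTGAA or TTCGAA on both strands, for 3 (7.69%, against 19.5% and 16.0%). No motif contains the letters of another, a match is a description of letters and not of binding, and no match says only that these letters are not in this window. The 80 bases just before the start are given for 6 genes: E2F2 and PCNA, the pair with the lowest ratio in SKM-1, E2F1 with 2 matches, POLA2, which has a match and the highest ratio in SKM-1, and POLD1 and RRM1, which have no match in the whole window and lie far apart in SKM-1. Capitals mark E2F motif matches on either strand, and each line reads 5′ to 3′ on the gene's strand. PCNA and POLD1 have 2 listed starts each, of which 1 is shown.
E2F2 (chr1:23531234-23531313, minus strand): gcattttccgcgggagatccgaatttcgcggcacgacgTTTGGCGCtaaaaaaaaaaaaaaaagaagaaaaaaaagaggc
PCNA (chr20:5126623-5126702, minus strand): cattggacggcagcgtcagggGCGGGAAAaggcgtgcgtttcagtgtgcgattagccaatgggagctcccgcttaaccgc
E2F1 (chr20:33686386-33686465, minus strand): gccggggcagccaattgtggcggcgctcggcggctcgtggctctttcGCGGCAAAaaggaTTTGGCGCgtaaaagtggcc
POLA2 (chr11:65261882-65261961, plus strand): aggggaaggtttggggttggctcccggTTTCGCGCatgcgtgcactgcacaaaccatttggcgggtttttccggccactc
POLD1 (chr19:50384243-50384322, plus strand): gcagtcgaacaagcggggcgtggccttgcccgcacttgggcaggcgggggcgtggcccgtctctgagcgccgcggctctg
RRM1 (chr11:4094605-4094684, plus strand): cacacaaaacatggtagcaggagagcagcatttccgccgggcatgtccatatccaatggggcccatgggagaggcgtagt
In SKM-1, whose ratios are given below, the median log2 ratio was -0.98 (range -3.65 to 0.43) for the 22 genes with an E2F motif and -0.61 (-1.84 to 0.145) for the 17 without. In MOLM-14 the same medians were 0.01 and -0.02, and in NOMO-1 0.08 and 0.02. The ranges overlapped in each line, and E2F2 and POLA2, which both have a match, had the lowest and the highest ratio in SKM-1. Whether a motif in the window goes with the ratio was not tested.

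The target was checked first. NCAM1 stood at 6004 and 1896 normalized counts in the control and knockdown libraries of MOLM-14, 1163 and 312 in those of NOMO-1, and 12537 and 101 in those of SKM-1. Its level was therefore 3.17-fold lower in MOLM-14 and 3.73-fold lower in NOMO-1, but 124-fold lower in SKM-1, where the knockdown was deepest. Libraries held 41916991 to 47688779 reads, so counting error is small for these genes. The SKM-1 knockdown library stood apart from the rest: 3329 of the 19575 genes were at least 2-fold lower and 3011 at least 2-fold higher than in its control, against 907 and 596 in MOLM-14 and 1597 and 843 in NOMO-1, and it is the library whose knockdown is labelled sh59a. Of 8 leukaemic myeloid markers 7 passed the filter. The leukocyte gene PTPRC (14053 to 23654 normalized counts), the myeloid receptor gene CD33 (1764 to 3837) and the myeloid transcription factor gene SPI1 (4790.5 to 9577) were well above it in all 6 libraries, whereas CD68 stayed at 10.4 or below, CEBPA was at 19.8 in the NOMO-1 control, and FLT3 was 8.78-fold lower in the SKM-1 knockdown library, at 294. Summed markers of other cells were 808 to 5400 normalized counts for T and NK cells, with CD3D at 3789 and 2961 in NOMO-1, 119 to 2269 for B cells, with MS4A1 at 144 and 1988 in the NOMO-1 pair and PAX5 at 1194 and 1032 in the MOLM-14 pair, and 33.4 or less for the 2 erythroid markers analysed. Epithelial and stromal markers summed to 2533 to 12220.0, mostly VIM except in the NOMO-1 knockdown library. In SKM-1, 3 of 5 tested were at least 2-fold higher (15.4% of all genes), with EPCAM at 549 and 1203. They include KRT8, which had few reads there and did not differ beyond counting error. Of 5 tested T and NK cell markers, 3 were at least 2-fold lower in SKM-1 (17.0% of all genes) and 1 higher. Beyond counting error, 2 of these 5 were lower. Of 5 B cell markers, 2 were at least 2-fold lower in SKM-1 and 0 higher. These lists are too short to set against those shares. The part of these markers in the results was not tested.

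Over the 3 lines together, no replication or G1/S gene was called. With limma on log2(normalized count + 1), the cell line as a block and Benjamini-Hochberg adjustment over 19575 genes, 0 genes of any kind were called in the knockdown comparison (0.0% in each direction), edgeR called 0 as well, and DESeq2 called 43, of which 0 belong to this set (0.0562% of genes higher and 0.163% lower). At an unadjusted p under 0.05 stood 1 of the 43, CDT1, on the lower side, against 2.89% of all genes lower and 1.59% higher. The median log2 change of the 43 was -0.29, beside -0.01 for all genes, and without the SKM-1 pair it was 0.04. The direction over 3 lines thus rested on SKM-1, and each result is given below line by line.

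**Figure D1:**
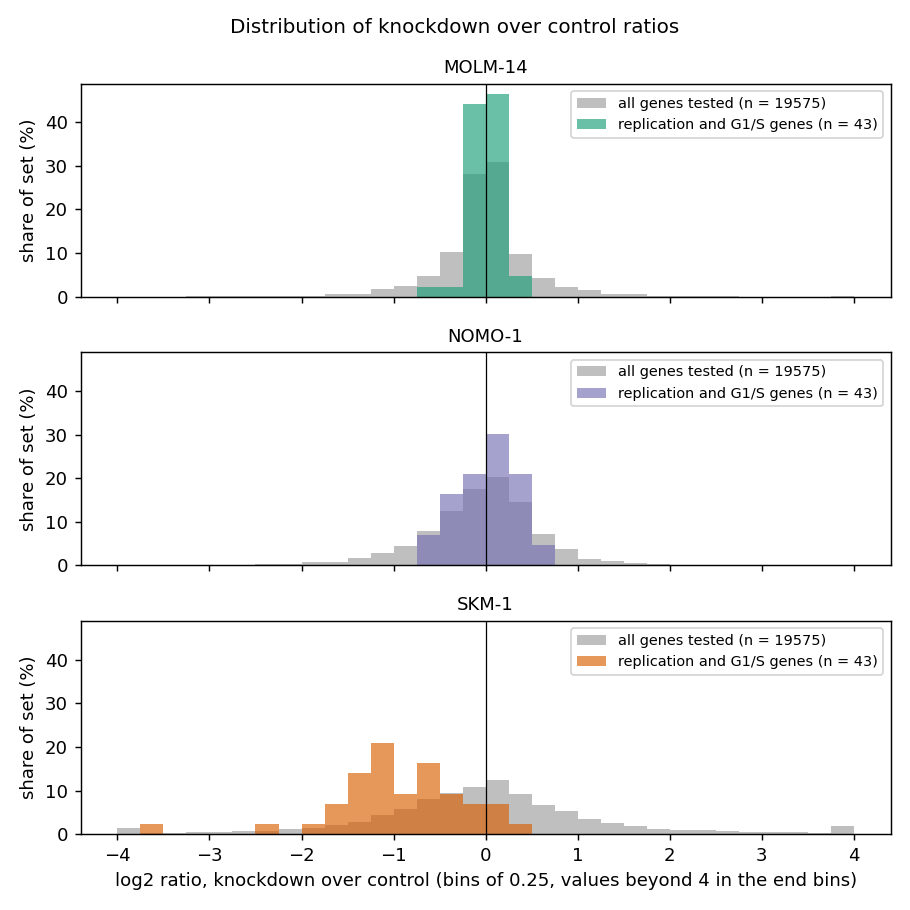
Share of genes (y axis, percent of each set) by log2 ratio of knockdown over control (x axis, bins of 0.25) in each cell line, for all 19575 genes tested (grey) and the 43 replication and G1/S genes (colour). In MOLM-14 and NOMO-1 the coloured bars sit around 0, within 0.75 on either side, and in SKM-1 most sit between -1.75 and 0 with E2F2 at -3.65.

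In SKM-1, 39 of the 43 genes were lower in the knockdown library than in the control library beyond counting error (exact conditional 95% interval of the ratio below 1), where 37.7% of all genes tested were, or 46.5% of the genes with a mean of 600 or more, a level that all 43 reach. POLA2 and RRM1 were higher beyond counting error, against 34.9% of all genes, and SLBP and CCNE1 were not separable from no difference. At least 2-fold lower were 21 of the 43, against 17.0% of all genes and 11.8% of those with a mean of 600 or more. Summed over the 43, normalized counts were 249856 in the control and 135855 in the knockdown library of SKM-1, which is 45.6% lower, while the sums were 194258 and 193287 in MOLM-14 and 244491 and 235306 in NOMO-1. The median log2 ratio was -0.94 in SKM-1, 0.02 in MOLM-14 and 0.02 in NOMO-1, beside -0.01, 0.00 and -0.00 for all genes. These are bulk libraries, in which fewer cells in S phase and less RNA per cell cannot be told apart. With 1 library per condition in the line there is no test, and an interval reflects counting error alone.

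In MOLM-14 the same genes split around 0: 11 were lower and 17 higher beyond counting error, against 20.9% and 19.6% of all genes and 31.9% and 29.3% of those with a mean of 600 or more. None differed 2-fold, as did 4.63% of all genes on the lower and 3.04% on the higher side, or 1.24% and 0.609% at a mean of 600 or more. In NOMO-1, 17 were lower and 20 higher, against 31.4% and 29.7% of all genes and 41.4% and 41.0% at a mean of 600 or more, so these shares are near the background. Again none differed 2-fold (8.16% and 4.31% of all genes, 4.09% and 0.961% at a mean of 600 or more). Values ran from -0.57 (RRM2) to 0.49 (MCM10) in MOLM-14 and from -0.64 (CDT1) to 0.54 (CCNE1) in NOMO-1. SKM-1 had the lowest ratio of the 3 lines for 38 of the 43 genes, against 42.6% of all genes, NOMO-1 for 3 (29.8%) and MOLM-14 for 2 (27.2%). In all 3 lines 14 were below 0 (15.9% of all genes), or 9 with total-count scaling, under which MCM7, RFC5, LIG1, TYMS and CHAF1A no longer were. POLA2, RRM1 and SLBP were above 0 in all 3 (14.6%), and 14 genes were above 0 in MOLM-14 and NOMO-1 and below 0 in SKM-1 (13.7%). Across the 43 genes, the ratios in MOLM-14 correlated with those in NOMO-1 at Pearson's r of 0.26 (Spearman's rho 0.28) and with those in SKM-1 at 0.11 (0.098), and NOMO-1 with SKM-1 at 0.09 (0.21). These are descriptions across genes, which are not replicates, and no 2 lines share a library.

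Whether the SKM-1 response differed from the mean response of the other lines was tested in 1 model over the 6 libraries, in which the lone SKM-1 pair is assumed to vary like the other pairs and 1 residual degree of freedom is left. The limma test called 0 of 19575 genes (0.0% in each direction). At an unadjusted p under 0.05 stood 29 of the 43 genes, all of them lower in SKM-1, where 13.8% of all genes were lower and 13.8% higher, and the smallest adjusted p of the set was 0.0545 (PCNA). The count models gave calls: edgeR called 15 of the 43, all lower (6.63% of all genes lower, 7.52% higher), and DESeq2 called 16, all lower (5.41% lower, 6.36% higher). The 15 were CDC45, CDC6, E2F1, E2F2, GINS1, LIG1, MCM10, MCM4, PCNA, POLA1, POLD1, RFC4, RFC5, TK1 and UNG, and DESeq2 added MCM7. The median difference of the 43 was -0.95 on the log2 scale, beside -0.03 for all genes, and was -0.92 with MOLM-14 left out and -0.93 with NOMO-1 left out, where no residual degree of freedom remains and no test is possible.

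**Figure D2:**
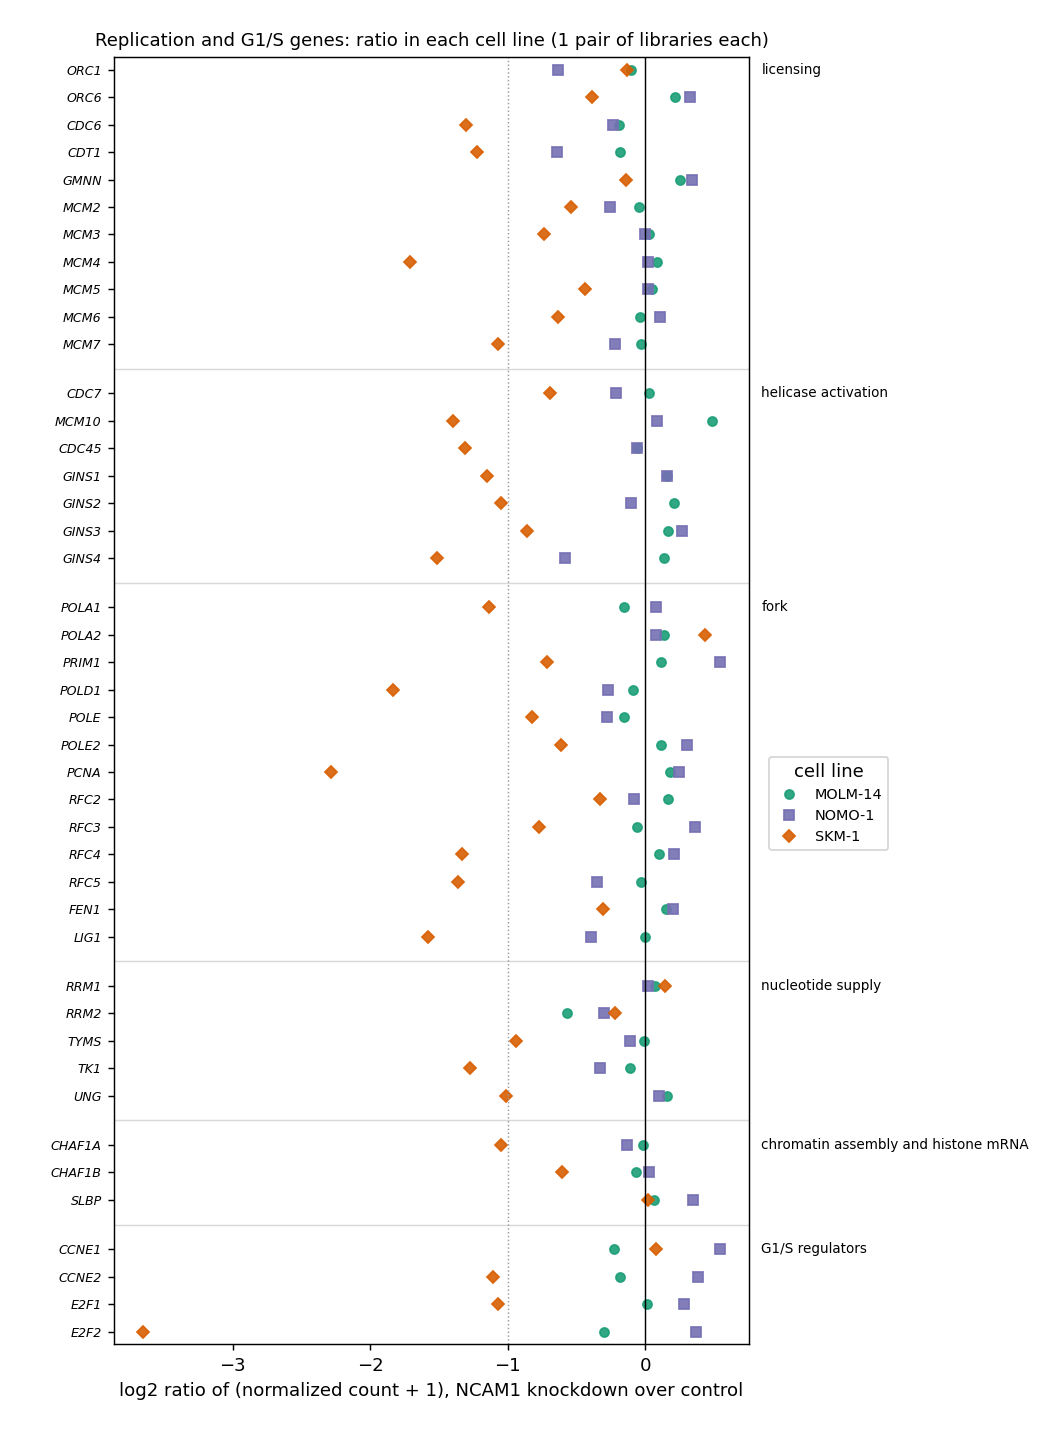
Log2 ratio of (normalized count + 1), NCAM1 knockdown over control (x axis), for each of the 43 genes (y axis, grouped by role) in MOLM-14 (circles), NOMO-1 (squares) and SKM-1 (diamonds), 1 pair of libraries per point; the dotted line marks -1. SKM-1 is leftmost for 38 genes, and POLA2, RRM1, SLBP and CCNE1 are the 4 whose diamonds lie to the right of 0.

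Licensing genes were lower in SKM-1 for 11 of 11, with a median log2 ratio of -0.63, and centred on 0 in MOLM-14 (-0.03) and NOMO-1 (-0.00). CDT1, which brings the MCM ring to origins, had control and knockdown levels of 5826 and 5139 normalized counts in MOLM-14, of 5726 and 3663 in NOMO-1 and of 6229.5 and 2667 in SKM-1. The knockdown library was the lower of the pair in each line, by 1.13-fold, 1.56-fold and 2.34-fold. Over the lines its log2 change was -0.68 ± 0.25 (SE), with the smallest unadjusted p of the set (adjusted p = 0.779, limma). CDC6, the ATPase that works with CDT1 on origins, had 2553 normalized counts in the MOLM-14 control and 2241 in its knockdown library, 3837 and 3265 in the NOMO-1 pair and 1699.9 and 688 in the SKM-1 pair. Its knockdown value in SKM-1 was the lowest of the 6 libraries, and the SKM-1 response differed from the others by -1.09 ± 0.23 (SE, adjusted p = 0.0883, limma). The origin recognition subunits had smaller differences in SKM-1: ORC1 had log2 ratios of -0.10 for MOLM-14, -0.63 for NOMO-1 and -0.13 for SKM-1, its lowest in NOMO-1, and ORC6 of 0.22 for MOLM-14, 0.33 for NOMO-1 and -0.39 for SKM-1. GMNN, the inhibitor of licensing, showed log2 ratios of 0.25 for MOLM-14, 0.34 for NOMO-1 and -0.14 for SKM-1. In SKM-1 GMNN and ORC1 thus had nearly the same ratio, and CDC6 and CDT1 were lower than both.

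Among the MCM genes the spread in SKM-1 was wide. MCM4 had 22491 and 23933 normalized counts in the control and knockdown libraries of MOLM-14, 26442 and 26858 in those of NOMO-1, and 32091 and 9784 in those of SKM-1. The log2 ratios in MOLM-14 and NOMO-1 were 0.09 and 0.02, whereas the SKM-1 knockdown library was 3.28-fold lower (95% counting interval 3.21 to 3.35), and the difference in response was -1.77 ± 0.21 (SE, adjusted p = 0.0593, limma). MCM7 had control and knockdown levels of 15687 and 15346 normalized counts in MOLM-14, of 27326 and 23505 in NOMO-1 and of 17819 and 8467 in SKM-1. For MCM2, MCM3, MCM5 and MCM6 the SKM-1 log2 ratios were -0.54, -0.73, -0.44 and -0.63, and in MOLM-14 and NOMO-1 these 4 lay between -0.26 and 0.11. Since the 6 subunits form 1 ring, their levels were also compared per kilobase of transcript (exon length of the principal transcript in GENCODE release 29). In the SKM-1 control library the highest subunit, MCM4 at 7603 normalized counts per kilobase, was 2.70 times the lowest, MCM5 at 2813, and in the knockdown library the highest, MCM3 at 2887, was 1.46 times the lowest, MCM6 at 1982. In MOLM-14 that span was 2.71 in the control and 2.79 in the knockdown library, and in NOMO-1 it was 3.38 and 2.81. The more abundant subunits per kilobase, MCM4 and MCM7, were thus those with the lower ratios in SKM-1, a description of 6 genes in 1 pair of libraries.

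**Figure D3:**
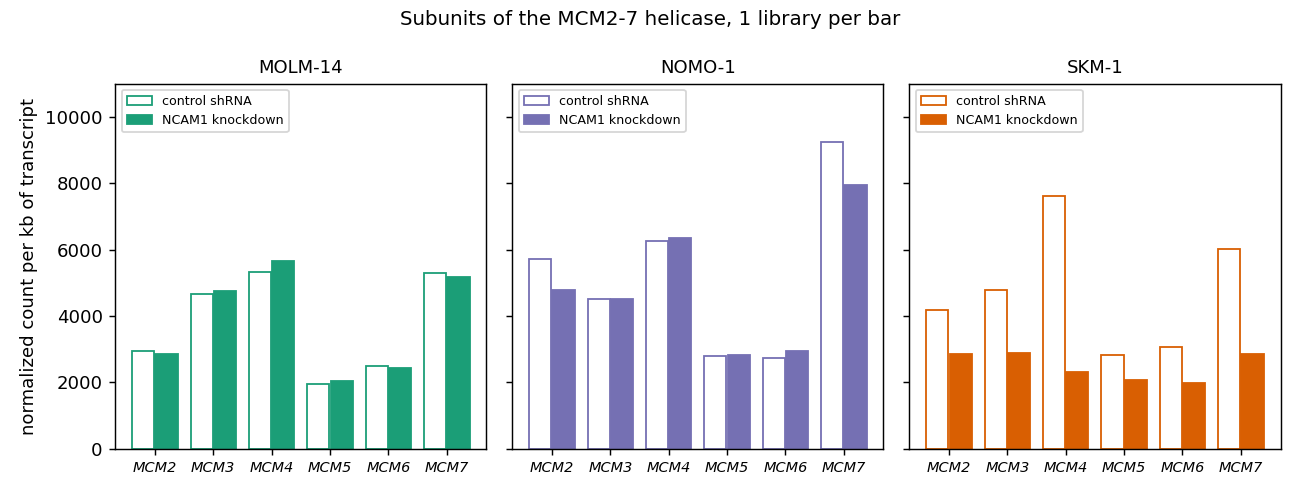
Normalized count per kilobase of transcript (y axis) of the 6 MCM2-7 subunits (x axis) in each line, with open bars for the control and filled bars for the knockdown library, 1 library per bar and no error bars. In SKM-1 the filled bars lie between 1982 and 2887, while the open bars run from 2813 to 7603.

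Helicase activation genes were lower in SKM-1 for 7 of 7, with the lowest role median of the 6 roles (-1.15), beside 0.16 in MOLM-14 and -0.06 in NOMO-1. MCM10, which helps to switch on the loaded helicase, had 1375 normalized counts in the MOLM-14 control and 1929 in its knockdown library, 2832 and 3008 in the NOMO-1 pair and 2759 and 1048 in the SKM-1 pair. It was the gene of the set with the highest ratio in MOLM-14 (0.49) and was 2.63-fold lower in SKM-1. CDC45, the factor that joins MCM and GINS in the moving helicase, had 2351 and 2256 normalized counts in the control and knockdown libraries of MOLM-14, 2260.3 and 2174 in those of NOMO-1, and 2763 and 1114 in those of SKM-1. The MOLM-14 and NOMO-1 pairs did not differ beyond counting error (both ratios 0.96), and the SKM-1 pair differed by 2.48-fold. GINS1 had control and knockdown levels of 1829 and 2044 normalized counts in MOLM-14, of 3420.2 and 3822 in NOMO-1 and of 5596 and 2525 in SKM-1. GINS4 had 1325 normalized counts in the MOLM-14 control and 1459 in its knockdown library, 1417 and 946 in the NOMO-1 pair and 1495 and 523 in the SKM-1 pair. The 4 subunits shared a direction in SKM-1, with log2 ratios of -1.15, -1.05, -0.86 and -1.51 for GINS1 to GINS4, but in NOMO-1 GINS4 alone was far below 0 (-0.58) and the other 3 lay between -0.10 and 0.27. The kinase gene CDC7 had 1598 and 1628 normalized counts in the control and knockdown libraries of MOLM-14, 2183 and 1887 in those of NOMO-1, and 2709 and 1675 in those of SKM-1. Its SKM-1 difference was the smallest of this role (-0.69), and differences in response for MCM10, CDC45 and GINS1 were -1.68 ± 0.29, -1.25 ± 0.23 and -1.31 ± 0.22 (SE, adjusted p = 0.0755, 0.0777 and 0.0737, limma).

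At the fork, 12 of 13 genes were lower in SKM-1 (median -0.82), beside medians of 0.10 in MOLM-14 and 0.08 in NOMO-1. PCNA, the clamp that holds polymerases on DNA, had control and knockdown levels of 7990.2 and 9038 normalized counts in MOLM-14, of 9851 and 11678 in NOMO-1 and of 20941 and 4285 in SKM-1. It was higher in the knockdown library in both MOLM-14 and NOMO-1 and 4.89-fold lower in SKM-1 (95% counting interval 4.73 to 5.05), where the control library also had the highest level of the 6 and the knockdown library the lowest, so the groups overlapped over lines. The difference in response was -2.50 ± 0.21 (SE), with adjusted p = 0.0545 in limma and, over the alternatives in which it was tested, from 1.80e-13 (DESeq2) to 0.864 (without the line as a block). POLD1, the catalytic subunit of polymerase delta, had 4184 normalized counts in the MOLM-14 control and 3946 in its knockdown library, 4166 and 3457 in the NOMO-1 pair and 4623 and 1293 in the SKM-1 pair. LIG1, the ligase that seals the lagging strand, had 3702 and 3694 normalized counts in the control and knockdown libraries of MOLM-14, 5707 and 4354 in those of NOMO-1, and 4172 and 1398 in those of SKM-1. Their SKM-1 folds were 3.58 and 2.98, and both lay below their controls in NOMO-1 as well. POLE, the catalytic subunit of polymerase epsilon, had control and knockdown levels of 8759.7 and 7891 normalized counts in MOLM-14, of 9621 and 7939.8 in NOMO-1 and of 5369 and 3035 in SKM-1. Here the knockdown library was lower in each line, by 1.11-fold, 1.21-fold and 1.77-fold, and its accessory subunit POLE2 had log2 ratios of 0.12 for MOLM-14, 0.31 for NOMO-1 and -0.61 for SKM-1.

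The clamp loader and the polymerase alpha-primase complex did not have 1 common ratio. RFC4 had 2138 normalized counts in the MOLM-14 control and 2294 in its knockdown library, 4734 and 5473 in the NOMO-1 pair and 5218 and 2077 in the SKM-1 pair. RFC5 had 3124 and 3063 normalized counts in the control and knockdown libraries of MOLM-14, 3848 and 3024 in those of NOMO-1, and 1802 and 702 in those of SKM-1. They were 2.51-fold and 2.57-fold lower in SKM-1, while RFC3 and RFC2 were lower by less (log2 ratios -0.77 and -0.33). In polymerase alpha-primase, which lays the first primers, POLA1 had log2 ratios of -0.15 for MOLM-14, 0.08 for NOMO-1 and -1.13 for SKM-1, PRIM1 of 0.11 for MOLM-14, 0.54 for NOMO-1 and -0.71 for SKM-1 and POLA2, the regulatory subunit, of 0.14 for MOLM-14, 0.08 for NOMO-1 and 0.43 for SKM-1. POLA2 was thus higher in SKM-1 by 1.35-fold while its catalytic partner POLA1 was 2.19-fold lower. FEN1, the nuclease that trims Okazaki fragments, showed log2 ratios of 0.15 for MOLM-14, 0.20 for NOMO-1 and -0.31 for SKM-1. Exons of PRIM1 overlap those of NACA on the same strand, exons of RFC4 overlap those of EIF4A2 on the other strand, and FEN1 overlaps FADS2 and TMEM258. POLA2 and POLD1 also share exon bases with a gene on the same strand, AP000944.2 and AC020909.1. In GENCODE, 18 of the 43 genes share exon bases with another gene, 14 of them with a gene on the opposite strand. The kit does not keep the strand, so reads in shared exons cannot be assigned to 1 gene for certain.

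**Figure D4:**
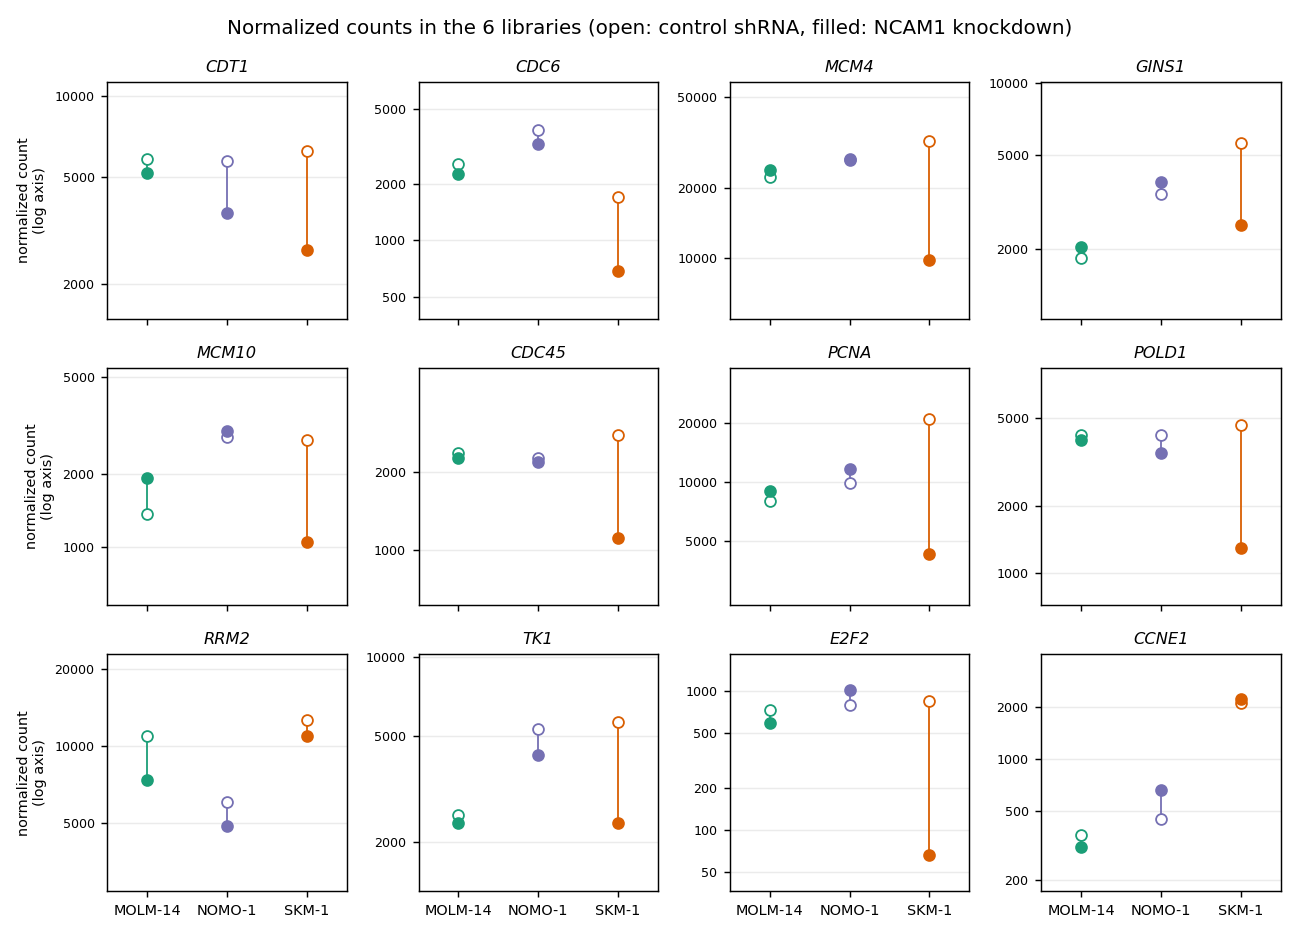
Normalized counts (y axis, log scale, own range per panel) of 12 of the genes in the control (open) and knockdown (filled) library of each cell line, joined by a line within a cell line. The filled point is far below the open one in SKM-1 for CDT1, CDC6, MCM4, GINS1, MCM10, CDC45, PCNA, POLD1, TK1 and E2F2, whereas RRM2 has its widest gap in MOLM-14 and CCNE1 is highest in both SKM-1 libraries.

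Nucleotide supply was divided. TK1, the thymidine kinase of the salvage pathway, had control and knockdown levels of 2531 and 2346 normalized counts in MOLM-14, of 5343 and 4267 in NOMO-1 and of 5669.7 and 2343 in SKM-1. It was 2.42-fold lower in SKM-1 and was below its control in each line. UNG, the uracil-DNA glycosylase that clears misincorporated uracil, had 3489 normalized counts in the MOLM-14 control and 3895 in its knockdown library, 2715 and 2912 in the NOMO-1 pair and 3057 and 1513 in the SKM-1 pair. TYMS, which makes thymidylate, had log2 ratios of -0.01 for MOLM-14, -0.11 for NOMO-1 and -0.94 for SKM-1, and its exons overlap those of ENOSF1 on the opposite strand. Ribonucleotide reductase, which makes deoxyribonucleotides, had small differences in SKM-1: RRM1, its large subunit, had log2 ratios of 0.07 for MOLM-14, 0.02 for NOMO-1 and 0.14 for SKM-1. RRM2, the S phase regulated small subunit, had 10955 and 7375 normalized counts in the control and knockdown libraries of MOLM-14, 6015 and 4878 in those of NOMO-1, and 12633 and 10873 in those of SKM-1. RRM2 was lower in each line, but by most in MOLM-14 (1.49-fold) and by least in SKM-1 (1.16-fold), unlike PCNA. Without the SKM-1 pair it was the gene of the set with an unadjusted p under 0.05 (log2 change -0.44, adjusted p = 0.6645, limma). Exons of RRM2 overlap those of AC007240.1 on the same strand, and exons of RRM1 those of RRM1-AS1 on the opposite strand. In the 5 genes of this role, 4 were lower and 1 was higher beyond counting error in SKM-1 (median -0.94).

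Of the 3 chromatin assembly and histone genes, the pair that encodes the large subunits of chromatin assembly factor 1 was lower in SKM-1 and SLBP was not. CHAF1A had control and knockdown levels of 3901 and 3853 normalized counts in MOLM-14, of 3008 and 2748 in NOMO-1 and of 3594 and 1741 in SKM-1. CHAF1B had 1151 normalized counts in the MOLM-14 control and 1097 in its knockdown library, 738 and 752 in the NOMO-1 pair and 2436 and 1600.3 in the SKM-1 pair. SLBP, which binds the stem-loop of replication histone RNAs, had log2 ratios of 0.06 for MOLM-14, 0.35 for NOMO-1 and 0.02 for SKM-1. Exons of CHAF1A overlap those of UBXN6 on the opposite strand.

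The G1/S regulators held the lowest ratio of the set. E2F2, an activating E2F, had 724 and 588 normalized counts in the control and knockdown libraries of MOLM-14, 786 and 1014 in those of NOMO-1, and 842 and 66.1 in those of SKM-1. In SKM-1 this is a 12.7-fold difference (ratio 0.0785, 95% counting interval 0.0608 to 0.0999), the lowest ratio of the 43 genes. The SKM-1 control was the highest of the controls, within the 588 to 1014 of all libraries of the other lines. The difference in response was -3.69 ± 0.42 (SE, adjusted p = 0.0582, limma). E2F1, also an activator, had control and knockdown levels of 1196 and 1209.9 normalized counts in MOLM-14, of 1488 and 1811 in NOMO-1 and of 3821 and 1819 in SKM-1. CCNE2 had 716 normalized counts in the MOLM-14 control and 629 in its knockdown library, 495 and 645 in the NOMO-1 pair and 824 and 383 in the SKM-1 pair. CCNE1, the other cyclin E gene, had 366 and 312 normalized counts in the control and knockdown libraries of MOLM-14, 452 and 661 in those of NOMO-1, and 2116 and 2238 in those of SKM-1. The 2 cyclin E genes thus differed: in SKM-1 CCNE2 was 2.15-fold lower and CCNE1 stayed within counting error, and in NOMO-1 all 4 regulators were higher in the knockdown library (log2 ratios 0.28 to 0.54). The SKM-1 median of this role was -1.09.

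Cell lines also differed in the level of some of these genes, averaged over both libraries of a line. For SKM-1 against the mean of MOLM-14 and NOMO-1, 6 of the 43 genes were called by limma. A call needed an adjusted p under 0.05 and at least a 2-fold difference. Of the 6, 2 were higher (7.4% of all genes) and 4 lower (8.18%), so the shares called are near the background. Of the 9363 genes with a mean of 600 or more, 488 were called higher and 510 lower. CCNE1 was higher by 2.34 ± 0.25 on the log2 scale (SE, adjusted p = 0.00812), and its SKM-1 values of 2116.5 and 2238 do not overlap the 312 to 661 of the other lines. CHAF1B was higher by 1.11 ± 0.23 (adjusted p = 0.0389). RFC5, CDC6, PRIM1 and POLE were lower, with log2 differences of -1.53, -1.43, -1.33 and -1.08 (adjusted p = 0.0403, 0.041, 0.0499 and 0.0331). For CDC6 the SKM-1 control alone (1699.9) was already below the other 4 libraries (2241 to 3837), and for RFC5 likewise (1802.5 against 3024 to 3848). PRIM1 had control and knockdown levels of 3124 and 3378 normalized counts in MOLM-14, of 1896 and 2764 in NOMO-1 and of 1393 and 848 in SKM-1, with the SKM-1 control again the lowest of the controls. The count models gave 3 calls with edgeR (CCNE1, CHAF1B and POLE; 6.91% of all genes higher, 5.76% lower) and the same 6 with DESeq2 (10.2% and 9.23%). With MOLM-14 left out 2 genes were called (CCNE1 and RFC2), and with NOMO-1 left out 0, so these calls rest on few libraries.

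Between MOLM-14 and NOMO-1, 1 gene was called: RFC2, a clamp loader subunit, lower in MOLM-14 with a log2 difference of -2.21 ± 0.22 (SE, adjusted p = 0.00798, limma). Of all genes, 8.01% were called lower and 5.26% higher. Of the 9363 genes with a mean of 600 or more, 459 were called lower and 480 higher. In this set 1 call is too few to set against those shares. RFC2 had 1771 normalized counts in the MOLM-14 control and 1986 in its knockdown library, 8899 and 8413 in the NOMO-1 pair and 2893 and 2301 in the SKM-1 pair. NOMO-1 stood above both other lines in each of its libraries, and edgeR (6.21% of all genes lower, 4.09% higher) and DESeq2 (10.9% and 7.44%) also called it. With the SKM-1 pair left out, RFC4 was called as well.

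Other genes of the same pathways, 91 tested rows in 7 lists, were also described, with no call by limma in either the knockdown comparison or the SKM-1 response difference. In SKM-1, 55 of the 91 were lower beyond counting error and 27 higher, against 37.7% and 34.9% of all genes, or 46.5% and 42.7% of those with a mean of 600 or more, with a median of -0.33. At an unadjusted p under 0.05 in the response difference, 32 were on the lower side and 6 on the higher side, against 13.8% of all genes on either side. Of 14 further licensing and firing genes 7 were lower and 5 higher, not far from those shares, with a median of -0.20. They include MCM8, a helicase of recombination and replication, with log2 ratios of 0.27 for MOLM-14, -0.06 for NOMO-1 and -1.57 for SKM-1, and RECQL4, a helicase of origin firing, with log2 ratios of -0.10 for MOLM-14, 0.34 for NOMO-1 and -1.51 for SKM-1. Of 23 further fork genes 18 were lower (median -0.46), among them RNASEH2B, a subunit of ribonuclease H2, with log2 ratios of 0.33 for MOLM-14, 0.38 for NOMO-1 and -1.16 for SKM-1, and POLE3, a histone-fold subunit of polymerase epsilon, with log2 ratios of 0.20 for MOLM-14, 0.08 for NOMO-1 and -1.34 for SKM-1. The 1 fork gene on the higher side at p under 0.05 was POLD4, the smallest subunit of polymerase delta, with log2 ratios of 0.21 for MOLM-14, -0.39 for NOMO-1 and 1.54 for SKM-1, chosen after its values were seen. It lay opposite to POLD1 in SKM-1.

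Of 10 further nucleotide supply genes 6 were lower and 4 higher in SKM-1 beyond counting error (median -0.50). Among all genes 37.7% were lower and 34.9% higher, or 46.5% and 42.7% at a mean of 600 or more. The nucleotide supply counts are not far from those shares. Smallest p in the response difference had DUT, the dUTPase, with log2 ratios of 0.12 for MOLM-14, 0.10 for NOMO-1 and -1.16 for SKM-1. Next was IMPDH2, which makes guanine nucleotides, with log2 ratios of -0.04 for MOLM-14, -0.17 for NOMO-1 and -1.04 for SKM-1. Of 10 further chromatin assembly genes 8 were lower (median -0.50), and those with the smallest p were the histone chaperone genes NASP, with log2 ratios of 0.06 for MOLM-14, 0.06 for NOMO-1 and -0.73 for SKM-1, and ASF1A, with log2 ratios of 0.20 for MOLM-14, 0.11 for NOMO-1 and -0.69 for SKM-1. Of the 4 checkpoint genes 1 was lower and 2 were higher (median 0.13), too few to set against those shares. ATRIP, the partner of the kinase ATR, had log2 ratios of 0.25 for MOLM-14, 0.41 for NOMO-1 and -0.19 for SKM-1. WEE1, a kinase that holds CDK1 and CDK2 inactive, had log2 ratios of -0.16 for MOLM-14, 0.08 for NOMO-1 and 0.25 for SKM-1. Mitosis genes, the neighbouring programme of the cell cycle, were lower in SKM-1 for 21 of 23 beyond counting error. Of all genes tested 37.7% were, and of those with a mean of 600 or more 46.5%. At least 2-fold lower were 4, against 17.0% of all genes and 11.8% at a mean of 600 or more, a share near the background. Their medians were -0.46 in SKM-1, -0.00 in MOLM-14 and -0.05 in NOMO-1. UBE2C, a ubiquitin-conjugating enzyme of mitotic exit, had log2 ratios of -0.10 for MOLM-14, 0.65 for NOMO-1 and -3.70 for SKM-1, and NUSAP1, a spindle protein, had log2 ratios of -0.09 for MOLM-14, -0.10 for NOMO-1 and -1.18 for SKM-1. Replication genes and mitosis genes thus lay on the same side of 0 in SKM-1, and the difference between the 2 lists was not tested.

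Of 24 tested rows for further G1/S regulators (CKS1B has 2 rows), 13 were lower and 7 higher in SKM-1 beyond counting error, against 37.7% and 34.9% of all genes and 46.5% and 42.7% of those with a mean of 600 or more. CCND3, the cyclin D3 gene, had 11085 and 8833 normalized counts in the control and knockdown libraries of MOLM-14, 7374 and 6344 in those of NOMO-1, and 7530.1 and 20786 in those of SKM-1. CDK6, the kinase that cyclin D activates, had control and knockdown levels of 23385 and 31502 normalized counts in MOLM-14, of 19908 and 30083 in NOMO-1 and of 6853 and 3063 in SKM-1. Among 6 tested inhibitors of cyclin-dependent kinases, 4 were higher and 2 lower in SKM-1 beyond counting error (34.9% and 37.7% of all genes). CDKN1A, which encodes p21, had 13672 normalized counts in the MOLM-14 control and 10113 in its knockdown library, 1606 and 1158 in the NOMO-1 pair and 1038 and 3796 in the SKM-1 pair. CDKN2D, which encodes p19INK4D, had 959 and 685 normalized counts in the control and knockdown libraries of MOLM-14, 355 and 217 in those of NOMO-1, and 539 and 873 in those of SKM-1. Both were lower in the knockdown library in MOLM-14 and NOMO-1 and higher in SKM-1, with response differences of 2.32 and 1.29 (adjusted p = 0.0545 and 0.108, limma). That is the reverse of the 14 replication genes that were above 0 in MOLM-14 and NOMO-1 and below 0 in SKM-1. The other tested inhibitors did not share this pattern, though for CDKN2A it cannot be judged. CDKN1B had log2 ratios of 0.10 for MOLM-14, 0.07 for NOMO-1 and -0.83 for SKM-1, the pattern of those 14 genes. CDKN2A was also lower in SKM-1 (-1.48), at 5133 in the control and 1843 in the knockdown library. In MOLM-14 and NOMO-1 it stayed at 2.23 or below, so its direction there cannot be read. CDKN2C was higher in all 3 lines, and CDKN1C was higher in MOLM-14 (0.88) and SKM-1 (2.56). Whether these inhibitors have a part in the lower replication RNAs was not tested.

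Markers of monocytes and macrophages also differed in SKM-1. Of 12 listed markers 11 were analysed and 9 passed the filter; 7 were at least 2-fold higher in the SKM-1 knockdown library (15.4% of all genes) and 0 at least 2-fold lower (17.0%), with a median log2 ratio of 3.57. Their summed normalized counts were 13030 in the control and 214700 in the knockdown library of SKM-1, against 9323 and 10080 in MOLM-14 and 54560 and 50000 in NOMO-1. S100A8, S100A9 and ITGAM gave 73055, 91617 and 20862 in the SKM-1 knockdown library and 302, 1254 and 1757 in its control. FCGR1A went the other way, with 1667 in the SKM-1 knockdown library and 2673 in its control, and was also lower in MOLM-14 and NOMO-1. No marker of that list was at 0 in all libraries, FCN1 was at 0 in the MOLM-14 knockdown library, CD14 stayed at 27.4 or below in all 6, and CD163 at 14.6 or below. MPO, a gene of the leukaemic myeloid list, was 2.80-fold higher in the MOLM-14 knockdown library and 3.40-fold lower in that of NOMO-1. In SKM-1 it was at 728820 in the control and 6166 in the knockdown library. Of the 7 tested markers of that list, 2 were at least 2-fold lower in SKM-1, MPO and FLT3. The 1 at least 2-fold higher was LYZ, at 2455 and 7205, and SPI1 was 1.60-fold higher. The part of these differences in the replication result was not tested, and with 1 pair they cannot be told apart from it or from the deeper loss of NCAM1 RNA in that line.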

How the data were processed

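RNA of 3 AML lines, each with 1 control and 1 NCAM1 knockdown library, was analysed from 2 deposited tables: a normalized count signal per gene and log2 transformed values, both made by the authors. Per the submitters' processing notes, bcl2fastq 1.8.4, STAR, HTSeq 0.6.1p1 and DESeq2 1.12.4 were used with build hg19; the labels give neither the strand setting nor the annotation. In the deposited signal, 100.0% of values came out as whole reads (tolerance 0.001), which gave 41916991 to 47688779 reads per library. Counting intervals are exact conditional 95% intervals and cover counting error only, since reads carry no molecular identifiers.

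The main test was limma 3.58.1 (R 4.3.3) with an intensity trend on log2(normalized count + 1) of the 19575 genes with a mean of 10 or more, the cell line as a block and Benjamini-Hochberg adjustment; a fold change on this scale understates that of low genes. The SKM-1 response difference compared its log2 ratio with the mean of the other lines, and line levels were called at an adjusted p under 0.05 with at least 2-fold difference. Control and knockdown libraries of 1 line deviated together from their group means (r = 0.85, 0.86 and 0.71 across genes), and the pairing comes from the shared cell line in the labels. edgeR 4.0.16 and DESeq2 1.42.0 were run on the recovered reads, and other alternatives were pseudocounts of 0.5 and 8, other filters, other scalings, the authors' log2 values, no block, no trend and leaving out each line. The limma and edgeR fits were run on simulated data, where the median estimated changes were checked against the simulated ones. Recovery and false calls on those data are not given here. Levels per kilobase used GENCODE release 29 exon lengths (GRCh38) in place of the RefSeq lengths first planned, and promoters were RefSeq GRCh38.p14.

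The genes and lists were chosen with earlier results of these data known. Values in every library are given, per role, for the 3 genes (2 in roles of under 6) with the smallest unadjusted p. This holds for the knockdown comparison and for the SKM-1 response difference. They are also given for up to 4 genes per direction called in a line contrast. From each further list, the 2 genes with the smallest p in the SKM-1 response difference are named. POLD4 and the other tested inhibitors of cyclin-dependent kinases are named besides.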

Additional observations from a re-analysis of the deposited data

How the results depend on the processing

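Of the counts and medians under the alternatives 198 stayed within 1.5 times or within the spread, and 22 moved; of the values for single genes, 409 kept direction and call, 46 became called, 31 lost a call and 2 reversed. In the knockdown comparison DESeq2 called 43 genes, and leaving out each line in turn gave log2 changes of -1.98 to 0.034 for E2F2 and -0.64 to 0.098 for CCNE2, above 0 without the SKM-1 pair. For the SKM-1 response difference, where limma called 0 genes, the genes and set members called were 820 and 4 with a pseudocount of 8, 1669 and 10 with a filter at a mean of 50, 2061 and 9 with the authors' values, 2770 and 15 with edgeR, and 2303 and 16 with DESeq2. For the SKM-1 level, with 3051 genes and 6 set members called, the members called were 1 with no filter, 3 with the authors' values, 1 without the trend and 3 with edgeR, and leaving out MOLM-14 or NOMO-1 gave 676 to 1920 genes and 0 to 2 members. For the MOLM-14 level, with 2596 genes and 1 member called, leaving out SKM-1 gave 4880 and 2. Total-count scaling left 9 genes, not 14, lower in 3 lines, and moved the median of all genes in the MOLM-14 against NOMO-1 level from -0.0103 to -0.1406. The cause of these differences was not tested.

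Without the cell line as a replicate block, 0 genes were called in both the knockdown comparison and the SKM-1 response difference, and 141 and 1081 genes stood at an unadjusted p under 0.05, against 877 and 5389 with it. Each line has 1 library per condition, so the SKM-1 result has no replicate check, and depth is not what limits it.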
